A study of Mus musculus with 33 samples.

Results

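The genes described here build or support the folds (cristae) of the inner mitochondrial membrane in the heart muscle cells (cardiomyocytes) of mice. They were taken by symbol, and all 8 (Immt, Chchd3, Chchd6, Apoo, Apool, Chchd2, Chchd10 and Stoml2) were found among the 32245 genes of each of 3 expression tables. RNA, labelled as nuclear RNA, had been sequenced after removal of ribosomal RNA, and 27 of the 33 samples of the series are analysed here. The FST table holds 4 groups of 3 libraries: control, Eif2a mutant (a mutation in the alpha subunit of initiation factor eIF2), cardiomyocyte-specific Ptpmt1 knockout, and the double with both changes. The PHT table holds 2 controls, 2 libraries labelled as cardiomyocyte-specific Hri knockout, 3 of the Ptpmt1 knockout, and 2 doubles whose label calls the Hri change a knockout without naming a cell type. The PTGC table holds 3 controls and 3 doubles of the Ptpmt1 knockout with a Gcn2 knockout, and neither single change, so the effects of the 2 changes cannot be told apart there. The controls are labelled only as control. The sources used here name no age, no driver of the cardiomyocyte-specific deletion and no kind of Eif2a mutation. The labels also do not say whether the libraries of a group came from separate animals. The p-values therefore measure only the spread between these libraries, which may in part be technical. In the FST control, FST double, PHT Ptpmt1 knockout and both PTGC groups, male and female patterns of Xist and Y-linked genes occur together. Those groups hold animals of both sexes.

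Cristae are held open towards the intermembrane space at narrow necks, the cristae junctions, by a protein complex called MICOS (mitochondrial contact site and cristae organizing system). The complex and its helpers work in a membrane rich in cardiolipin, a lipid whose precursor phosphatidylglycerol is made by the phosphatase Ptpmt1. Heart mitochondria are densely packed with cristae, and Hri and Gcn2 are kinases that phosphorylate eIF2 under stress, after which the transcription factor Atf4 raises its target genes. The comparisons asked whether the transcripts of the cristae genes differ when Ptpmt1 is lost, and whether they do so with and without the eIF2 pathway.

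The values are normalized counts (reads divided by a size factor per library), which were scaled within each table, so every test stays within a table. Reads in genes ranged from 1887978 to 12583868 per library in FST, from 10739569 to 19405261 in PHT and from 10795644 to 19326112 in PTGC. Ptpmt1 itself checked the labels: its 6 FST libraries with the knockout lay between 31.3 and 49.2 and its other 6 between 150 and 175, and the PHT and PTGC libraries separated in the same way. Some libraries stood apart from their group. The chi-square per degree of freedom between reads of FST Ptpmt1 knockout 3 and its 2 partners was 22.6 and 20.1, against 6.91 between those partners, for FST control 3 it was 17.2 and 15.0, against 3.71, and for PTGC control 3 it was 28.8 and 43.0, against 9.97. The chi-square of FST Eif2a mutant 1 with its partners was 9.34 and 9.32, against 2.24 between them. That of PTGC double 2 was 22.8 and 15.3, against 7.52. FST double 2 had the lowest depth, and Eif2a mutant 1 the fewest genes with reads (15157). Cardiomyocyte markers (8 genes) made up 4.24% to 7.27% of all normalized counts, and macrophage markers (6 genes) at most 0.0066%. The 6 fibroblast markers summed to 0.192% in FST Ptpmt1 knockout 3 and to 0.0550% to 0.103% in the other FST libraries. In bulk RNA of this kind, fewer cells of a type and less RNA per cell cannot be told apart.

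None of the 8 genes changed by the test in any of the 13 comparisons (limma on log2(value + 1), two-sided, adjusted p under 0.05 over all genes tested). Neither edgeR nor DESeq2 on the recovered reads called any of the 104 values. An unadjusted p under 0.05 was reached by 1 of the 8 genes in the Eif2a mutant against control (Apool, against 7.97% of all genes tested), by 1 in the FST double against the Ptpmt1 knockout (Stoml2, against 13.8%) and by 4 in the PTGC double against control (Apool, Chchd10, Chchd2 and Apoo, against 11.5%), in limma as in edgeR and DESeq2. The tables did hold genes that changed. In FST, 0.504% of all genes tested passed for the Ptpmt1 knockout against control, 0.036% for the Eif2a mutant against control, 0.144% for the double against control, 0.878% for the double against the knockout, 0.0072% for the double against the mutant and 0.0216% for the interaction. In PHT the shares in the same order, with Hri in place of Eif2a, were 0.301%, 0.02%, 0.0267%, 0.327%, 0.02% and 0.12%, and in PTGC 0.743% passed for the double against control. Asns, the asparagine synthetase gene and a target of Atf4, averaged 232 ± 24.9 (SD, n = 3) in the FST controls and 1205 ± 238 (SD, n = 3) in the Ptpmt1 knockout, a log2 fold change of 2.36 ± 0.15 (SE, limma adjusted p = 1.56e-06). The same gene rose in the PHT Ptpmt1 knockout (2.14 ± 0.17, limma adjusted p = 3.10e-05) and in the PTGC double (2.64 ± 0.11, limma adjusted p = 3.28e-07). Groups without overlap were counted as a second description (share of all genes tested in brackets). In FST there were 0 of 8 in the knockout against control (19.1%) and 0 in the double against control (19.5%). There was 1 in the Eif2a mutant against control (Apool, lower, 16.3%) and 1 in the double against the mutant (Chchd10, lower, 14.9%). The double against the knockout had 1 (Stoml2, higher, 17.8%). In PHT there were 2 in the Ptpmt1 knockout against control (Immt lower, Chchd2 higher, 23.6%). There were 4 in the Hri knockout against control (Chchd6 lower, Chchd3, Apool and Chchd2 higher, 29.4%). The double against control also had 4 (Chchd6 lower, Chchd3, Chchd2 and Stoml2 higher, 32.2%). It had 0 against the Ptpmt1 knockout (24%) and 0 against the Hri knockout (31.3%). In PTGC there were 2 (Apool lower, Chchd10 higher, 18%).

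**Figure D1:**
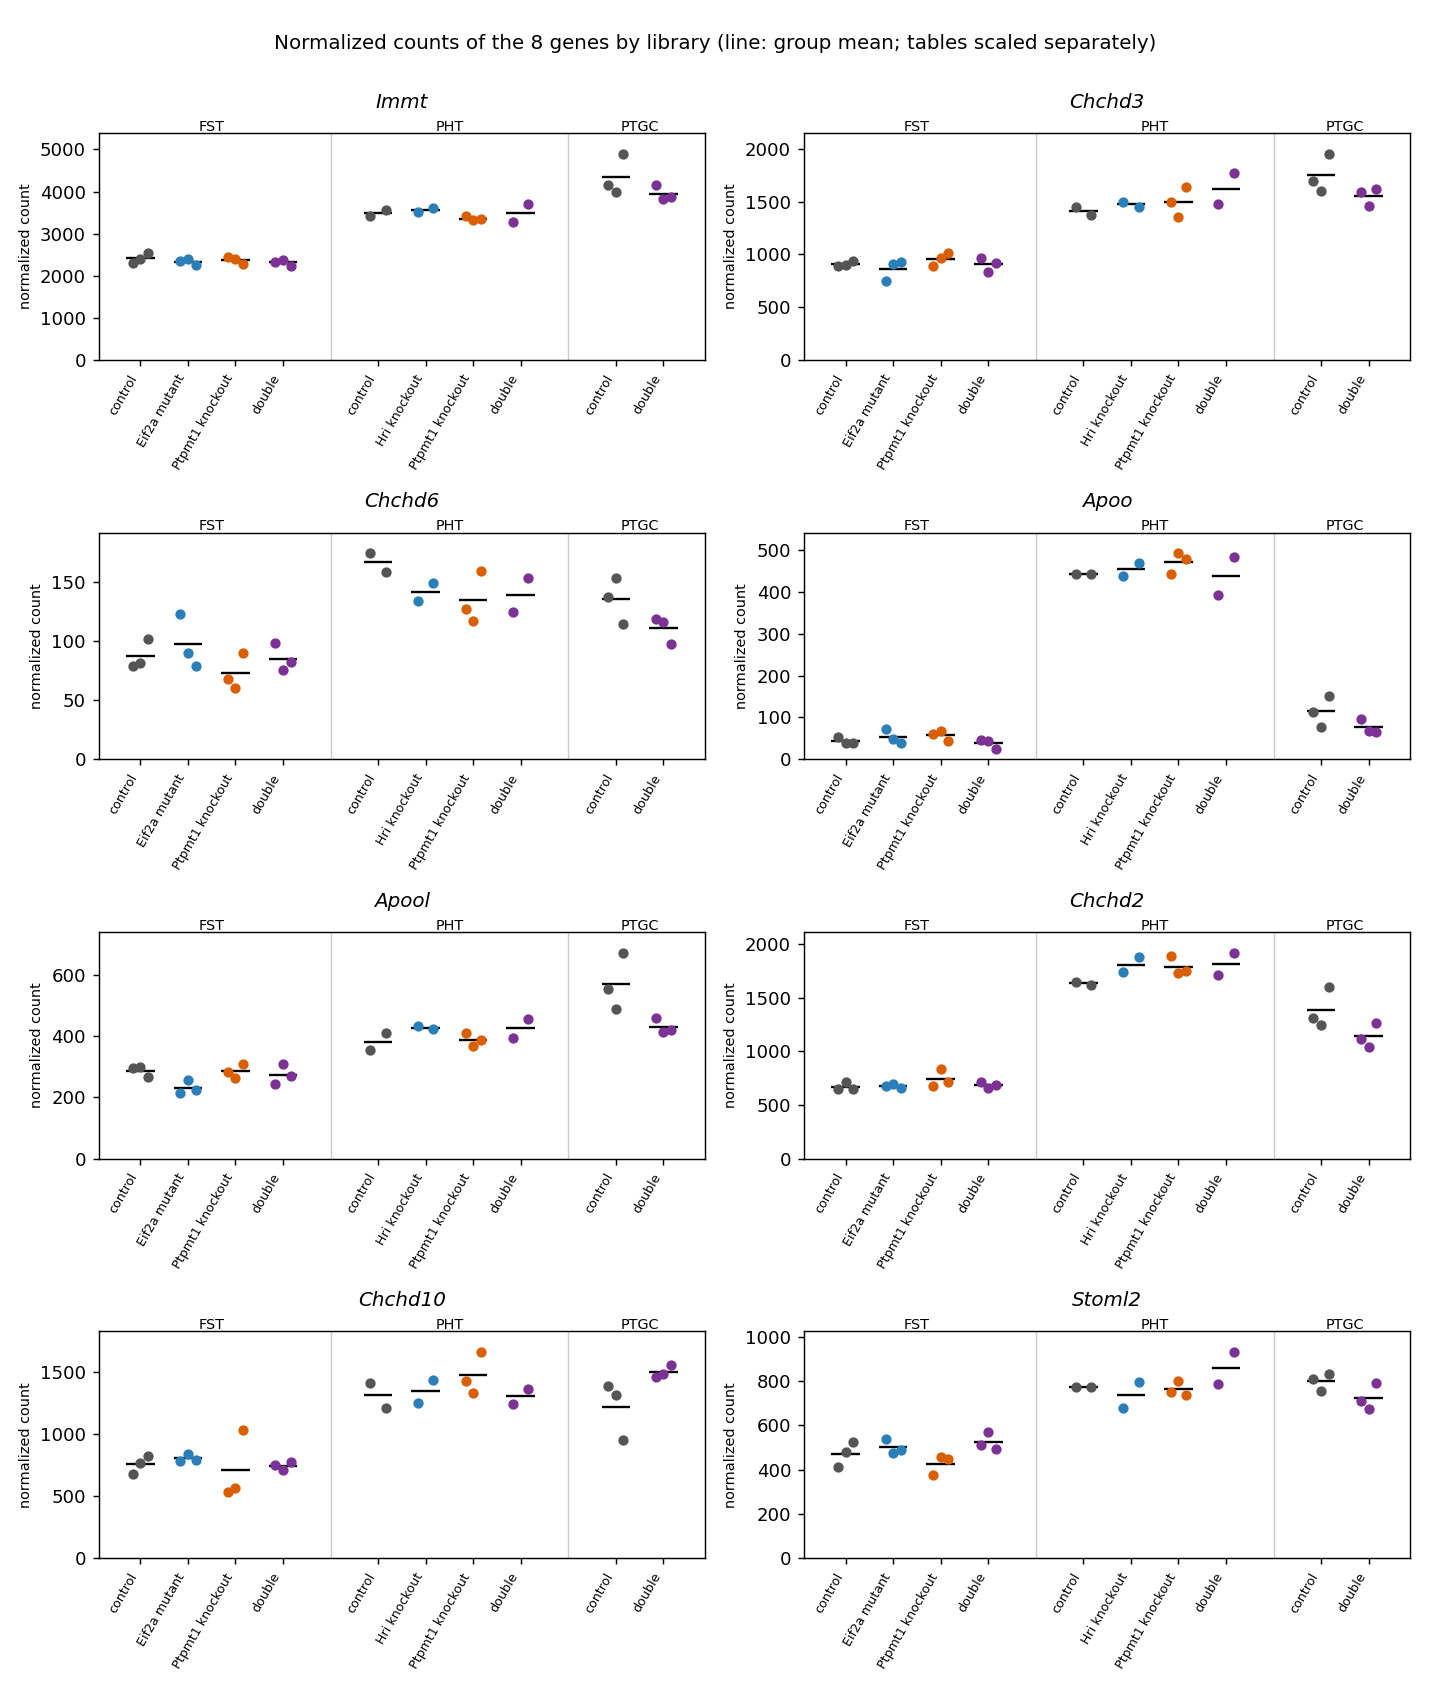
Normalized counts of the 8 genes in each of the 27 libraries, 1 panel per gene, with groups on the x axis and a line at each group mean; the FST, PHT and PTGC tables were scaled separately. The points of most groups overlap those of their controls, and Chchd10 in the third FST Ptpmt1 knockout lies at 1035, above every other FST library.

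**Figure D2:**
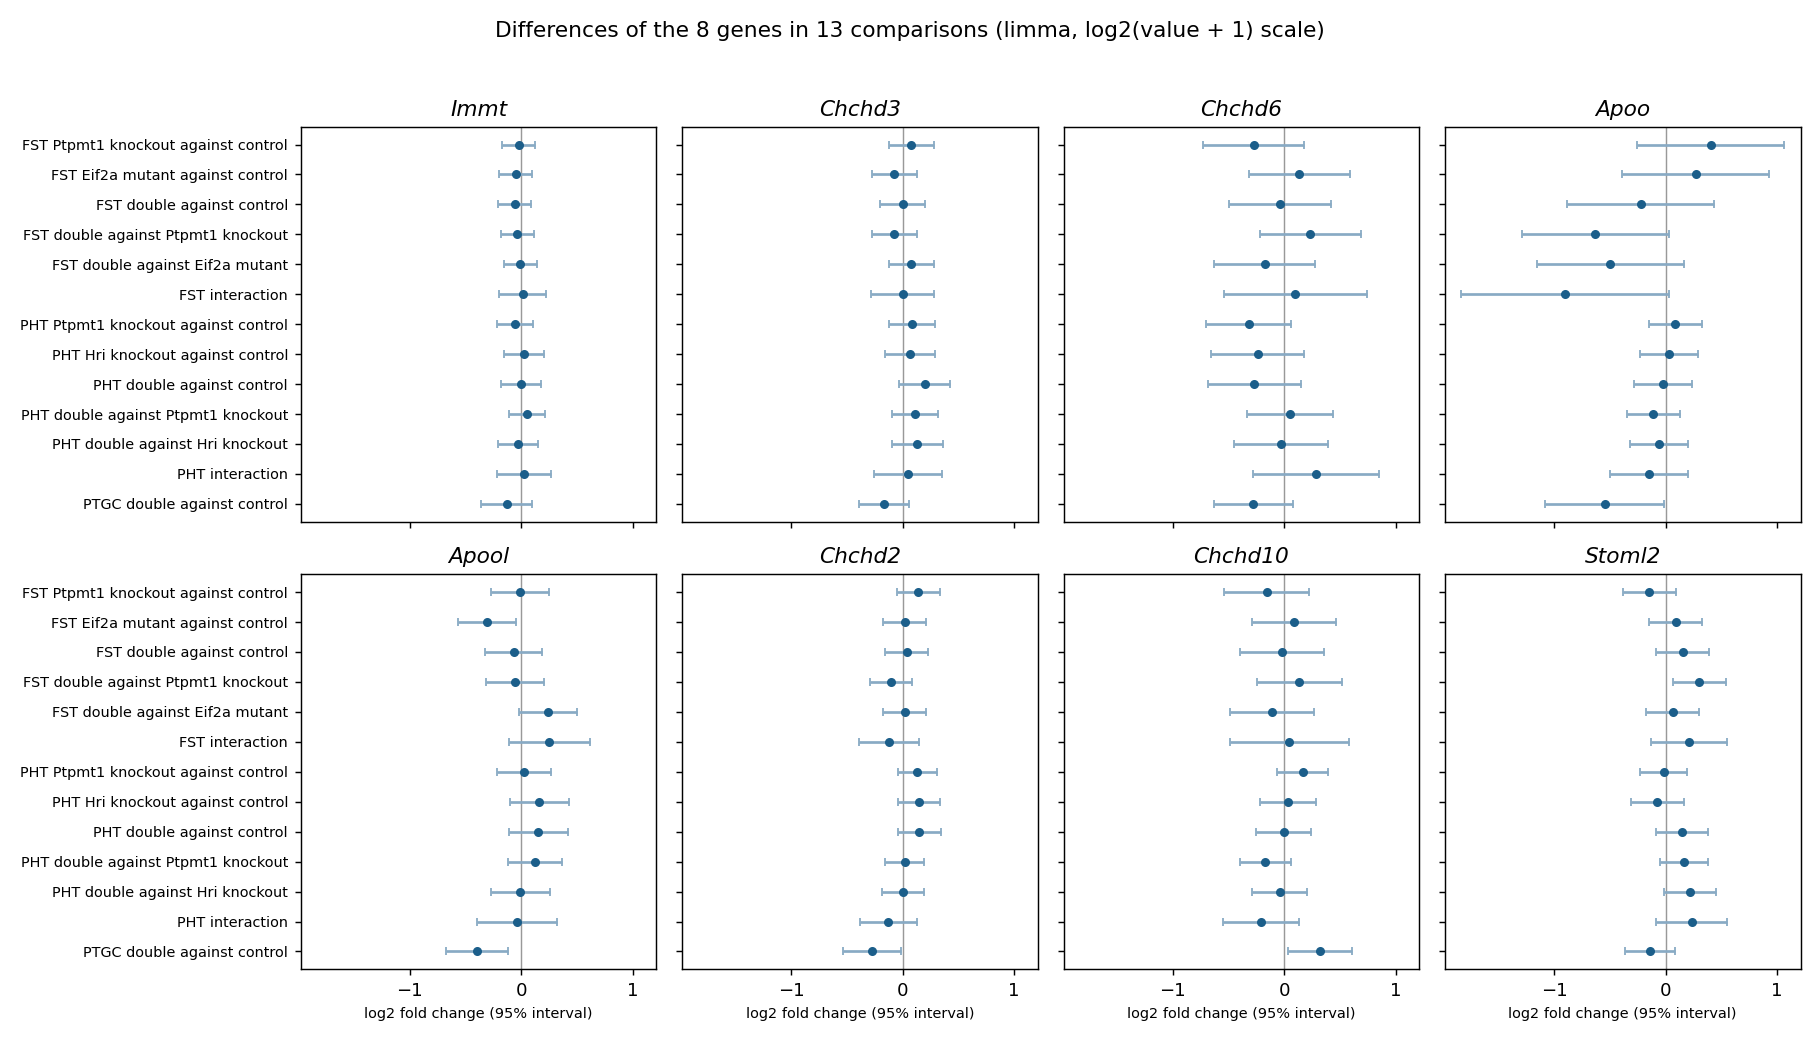
Log2 fold changes (x axis, points) with 95% intervals (bars) of the 8 genes in the 13 comparisons (y axis), from limma on log2(value + 1). In FST and PHT the intervals of Immt are the narrowest, and those of Apoo in FST are the widest.

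Immt encodes Mic60, the core subunit of MICOS that anchors the cristae junction, with a coefficient of variation between 1.57% and 11.2% over the 10 groups. The FST controls read 2305, 2400 and 2537, and the Ptpmt1 knockouts 2436, 2398 and 2287. The 2 sets of values interleave. The fitted level in the knockout was 98.4% of control, with a 95% interval from 88.8% to 109% (log2 fold change -0.02 ± 0.07 SE, limma adjusted p = 0.938). The PHT controls read 3420 and 3569, and the knockouts 3415, 3313 and 3338. All 3 knockouts were below both controls, by little: the fitted level was 96% of control (interval 85.8% to 108%, limma adjusted p = 0.999), and 11.6% of all genes tested also had every knockout below every control. Both doubles kept Immt near control too, at 95.9% (86.6% to 106%) in FST and 99.6% (88% to 113%) in PHT.

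Chchd3 (Mic19) and Chchd6 (Mic25) are paired cysteine-motif proteins that bind Mic60 on the side of the intermembrane space. The FST controls had Chchd3 at 888, 895 and 932, and the Ptpmt1 knockouts at 891, 966 and 1012. Its knockout values reach higher but overlap the controls, at 106% of control (91.8% to 121%, limma adjusted p = 0.800). PHT gave almost the same value, 106% (91.7% to 122%, limma adjusted p = 0.999). The largest departure of Chchd3 in PHT was in the double, 1477 and 1768 against 1447 and 1376 in the controls, or 114% of control (97.9% to 134%, limma adjusted p = 0.767). There the groups did not overlap, as was so for 32.2% of the genes tested in that comparison of 2 libraries with 2.

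Chchd6 was far less abundant, with 17 to 142 reads per library in FST, and its intervals are wider. The FST controls read 79.0, 81.5 and 101, and the Ptpmt1 knockouts 67.6, 60.6 and 89.6. The PHT controls read 174 and 159, and the knockouts 127, 117 and 159. In each table at least 2 of the 3 knockout values lay below all controls and the remaining one did not. The fitted levels were 82.8% of control in FST (60.4% to 113%, limma adjusted p = 0.637) and 80.2% in PHT (61.5% to 105%, limma adjusted p = 0.999). Each of those intervals includes no difference as well as a loss to 61.5% of control. The Hri knockout (134 and 149) and the PHT double (124 and 153) also lay below both PHT controls, at 84.9% (63.5% to 113%) and 83.1% (62.2% to 111%) of control, with limma adjusted p of 0.9998 and 0.820. In both comparisons 4 of the 8 genes had groups that did not overlap, against 29.4% and 32.2% of all genes tested. The 4 libraries that carry the Hri change showed a male pattern of Xist and Y-linked genes and both PHT controls a female one, so only the Ptpmt1 knockouts (1 male, 2 female) inform a sex term. With that term the Chchd6 values were -0.14 ± 0.33 (SE, log2 scale) for the Hri knockout and -0.17 ± 0.33 for the double, against -0.24 ± 0.20 and -0.27 ± 0.20 without it. In FST, all Ptpmt1 knockouts and control 1 showed the male pattern, and controls 2 and 3 the female one. Over the 14 alternative fits, a sex term among them, the FST knockout difference of Chchd6 ranged from -0.43 to -0.10 on the log2 scale.

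Apoo (Mic26) and Apool (Mic27) are related apolipoprotein-like subunits of MICOS, Apool is known to bind cardiolipin, and both genes lie on the X chromosome. Apool read 297, 298 and 265 in the FST controls, and 283, 261 and 308 in the Ptpmt1 knockout. These overlap, and the fitted level was 99.1% of control (82.9% to 119%, limma adjusted p = 0.986). In the Eif2a mutant, however, it read 214, 256 and 223, below every control. The difference was -0.31 ± 0.12 (SE, log2 scale) and did not pass (limma adjusted p = 0.552), and it left Apool as 1 of the 8 genes with groups apart, against 16.3% of all genes tested. The double of both changes read 244, 309 and 268, in and around the range of the controls. All 3 Eif2a mutants, all 3 Ptpmt1 knockouts and 1 of the 3 controls showed the male pattern. With a sex term the difference of the Eif2a mutant was -0.42 ± 0.15 (limma adjusted p = 0.927). Over the alternative fits the difference of the Ptpmt1 knockout ranged from -0.12 to 0.05. In PHT the controls read 353 and 410 and the Hri knockouts 431 and 421. The Ptpmt1 knockouts there read 411, 368 and 386, and the doubles 393 and 455. Both Hri knockouts lay above both controls (29.4% of all genes tested had groups apart), at 112% (93.1% to 135%, limma adjusted p = 0.9998). The double was at 111% of control (92.4% to 134%, limma adjusted p = 0.838). With a sex term the Hri difference went from 0.16 ± 0.12 (SE, log2 scale) to 0.04 ± 0.20.

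Apoo was the scarcest of the 8 in FST, with 10 to 77 reads per library. The controls there read 53.5, 38.2 and 38.2, and the Ptpmt1 knockouts 61.3, 68.2 and 44.2. Adding the Eif2a mutation gave 46.7, 44.2 and 23.4. Both groups reach 44.2, and the lowest double lies far under all other values. The double against the knockout was at -0.63 ± 0.31 (SE, log2 scale, limma adjusted p = 0.392), and at -0.32 ± 0.30 without double replicate 3. The Eif2a mutants alone read 72.3, 49.4 and 38.8, and the highest came from replicate 1, the library with the fewest genes with reads. The interaction (the knockout effect on the Eif2a mutant background minus that on the control background) was -0.90 ± 0.44 (SE) with an interval from -1.83 to 0.04 and a limma adjusted p of 0.710. Over the alternative fits the interaction ranged from -1.10 to -0.59. In PHT, where Apoo had 348 to 720 reads, the knockout was at 106% of control (90.2% to 125%) and the double at 98.4% (82.2% to 118%).

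The counts of Apoo carry a further limit. In the GENCODE vM21 annotation (GRCm38, the build also called mm10), Apoo spans chrX:94367117-94417093 on the plus strand, and a processed copy, Apoo-ps, lies at chr13:107414144-107414729. That copy matched the Apoo transcript over 586 of 586 bases. Chchd2, at chr5:129881156-129887470 on the minus strand, likewise has a copy, Chchd2-ps, at chr4:148068031-148068492, with 98.7% identity over 462 bases. How reads that fit a gene and its copy were counted is not stated in the sources used here, so the levels of Apoo and Chchd2 are uncertain. Ratios of genes within a library also differed between tables. Apoo divided by Apool was 0.0873 to 0.337 in the 12 FST libraries and 0.156 to 0.226 in the 6 PTGC libraries, but 1 to 1.34 in the 9 PHT libraries. Every PHT library, controls included, lay above every library of the other tables. Chchd2 divided by Immt behaved in the same direction, with 0.254 to 0.347 in FST, 0.269 to 0.328 in PTGC and 0.454 to 0.552 in PHT. For Chchd3 divided by Immt the ranges overlapped (0.318 to 0.443 in FST, 0.386 to 0.490 in PHT and 0.381 to 0.418 in PTGC). Some genes of the pathway lists, chosen here after their values were seen, also had control means further apart between FST and PHT than Immt (2414 and 3495): Phb had 331 and 1537, Atp5l 135 and 1172, and Ndufs5 18.0 and 431. The tables were scaled separately, and the cause of these steps was not tested.

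**Figure D3:**
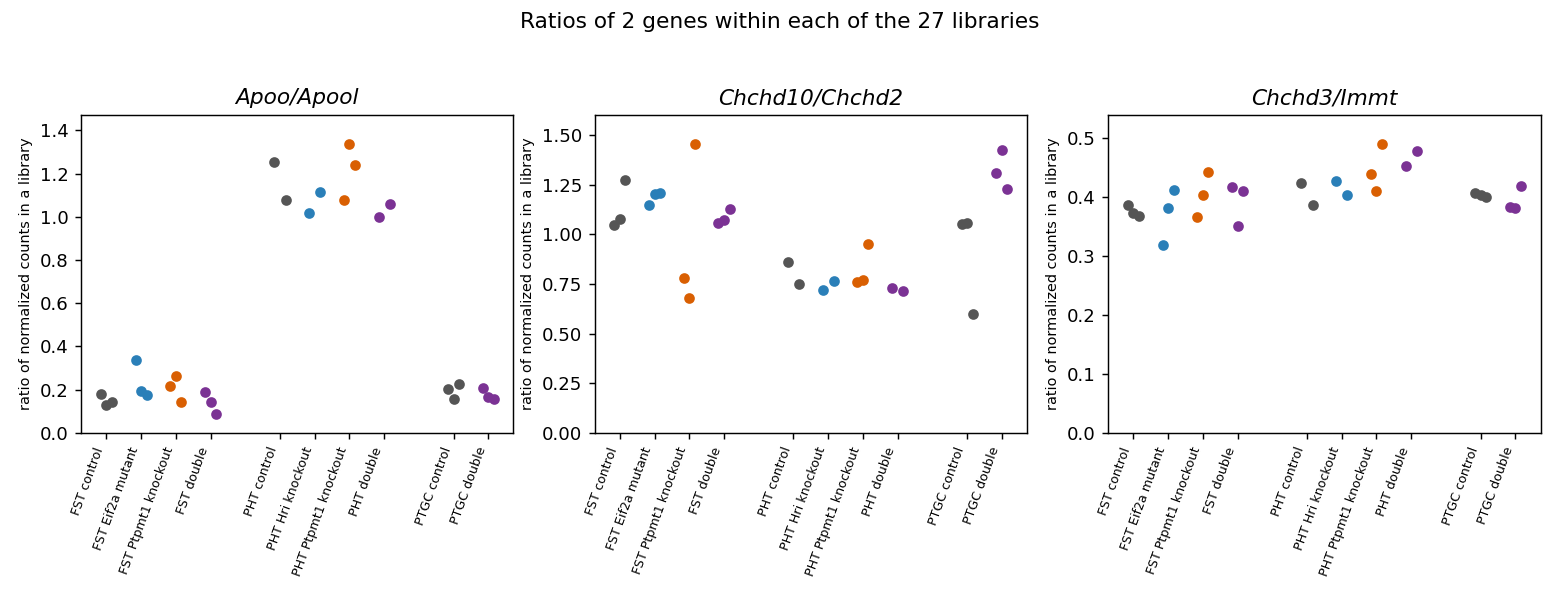
Ratio of normalized counts of 2 genes within each of the 27 libraries (y axis), by table and group (x axis), for Apoo/Apool, Chchd10/Chchd2 and Chchd3/Immt. All 9 PHT libraries lie at 1 or more for Apoo/Apool and all others at 0.337 or less, while Chchd3/Immt spans 0.318 to 0.490 over all tables.

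Chchd2 and Chchd10 are paralogous small proteins of the intermembrane space that associate with each other and with MICOS, and variants of CHCHD10 are known from inherited muscle, heart and motor neuron disease. Chchd2 read 649, 715 and 645 in the FST controls and 679, 832 and 711 in the Ptpmt1 knockout. In PHT the controls read 1647 and 1619, and the knockouts 1886, 1732 and 1752. The PHT knockouts were all above both controls, as was so for 12% of the genes tested (23.6% in either direction, and 2 of the 8 genes described here), while the FST groups overlap. Neither difference passed: Chchd2 was at 110% of control in each table, with intervals of 96.5% to 126% in FST and 97.1% to 124% in PHT (limma adjusted p = 0.535 and 0.999). The Hri knockout (1740 and 1878) and the PHT double (1708 and 1920) were also above both controls, each at 111% of control (97.0% to 126% and 97.2% to 127%). With a sex term both log2 fold changes of Chchd2 went from 0.15 to 0.03 ± 0.15 (SE).

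In Chchd10 a single FST library decided whether the test was passed. The FST controls read 681, 770 and 820, and the Eif2a mutants 780, 840 and 792. The Ptpmt1 knockouts read 531, 565 and 1035, so that 2 of them were the lowest and 1 the highest of the 12 FST libraries. The doubles, at 754, 707 and 775, were within the range of the controls. Over all libraries the knockout was at 89.7% of control (69.0% to 117%, log2 fold change -0.16 ± 0.18 SE, limma adjusted p = 0.781). The coefficient of variation of Chchd10 in the knockout, 39.6%, was the highest among the 8 genes in any group. Without Ptpmt1 knockout replicate 3, Chchd10 fell by 0.46 on the log2 scale (SE 0.09, limma adjusted p = 0.0127), and the double against the knockout was 0.44 ± 0.09 (SE) higher (limma adjusted p = 0.0248). Without knockout replicate 1 the first of these differences was 0.02 ± 0.18 and without replicate 2 it was -0.03 ± 0.19. Leaving out replicate 3 also moved the number of genes called from 70 to 857 in the comparison with control and from 122 to 327 in that with the double. This library had the highest FST sums of fibroblast (0.192%), macrophage (0.0066%, at most 0.0033% elsewhere) and erythroid markers (0.0416%, at most 0.0399% elsewhere) and the lowest of mural markers (0.0388%, at least 0.0415% elsewhere), and their part in the Chchd10 value was not tested. In PHT the knockouts read 1434, 1332 and 1664 against 1417 and 1212 in the controls, 112% of control (95.8% to 131%, limma adjusted p = 0.999). No PHT knockout lay below both PHT controls.

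The region before the start of Chchd10 held letters that match an element of Atf4 target genes. RefSeq promoter windows (build GRCm38.p6, 250 bases before the start) were at hand for 7 of the 8 genes and were searched on both strands for TGATGNAA, the composite C/EBP-ATF element through which Atf4 acts. Chchd10 held 2 matches and the other 6 held none, while 3.45% of the 32851 windows held at least 1. The window of Chchd10 (chr10:75932880-75933129, plus strand) is shown with that of Asns (chr6:7693210-7693459, minus strand), the gene that rose in the same libraries, each from 5′ to 3′ towards the start, with the matches in capitals:
Chchd10: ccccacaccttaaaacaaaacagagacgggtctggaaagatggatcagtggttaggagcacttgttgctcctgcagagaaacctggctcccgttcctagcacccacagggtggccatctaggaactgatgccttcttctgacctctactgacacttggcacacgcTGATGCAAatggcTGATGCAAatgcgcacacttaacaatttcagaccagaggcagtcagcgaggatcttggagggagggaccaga
Asns: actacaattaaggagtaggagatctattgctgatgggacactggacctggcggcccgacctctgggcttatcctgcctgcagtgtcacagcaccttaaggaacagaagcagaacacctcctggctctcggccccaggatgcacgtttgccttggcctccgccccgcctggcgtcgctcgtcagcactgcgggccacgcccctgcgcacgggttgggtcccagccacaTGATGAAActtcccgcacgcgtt
The first bases of the matches lie 85 and 72 bases before the start in Chchd10 and 23 bases before it in Asns. Both matches in Chchd10 read TGATGCAA followed by atg. They are a close repeat of the same letters and need not be 2 independent occurrences. A match is a string of letters and not a measured site. In the FST knockout libraries where Asns read 976, 1187 and 1452, Chchd10 read 531, 565 and 1035. In the PHT Ptpmt1 knockouts Asns read 1121, 1341 and 1638, and Chchd10 1434, 1332 and 1664. In the PTGC doubles Asns read 2323, 1990 and 2229, and Chchd10 1463, 1489 and 1555. A part of the matches in these values was not tested.

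Stoml2 (stomatin-like protein SLP-2) is an inner membrane scaffold that binds prohibitins and cardiolipin. The FST controls read 414, 480 and 526, and the Ptpmt1 knockouts 375, 460 and 447. The knockout was at 90.4% of control (76.6% to 107%, limma adjusted p = 0.629), with overlapping groups. The FST doubles read 510, 570 and 495, and the Eif2a mutants alone 540, 477 and 490. Each double was above each knockout, as was so for 8.95% of the genes tested, with a difference of 0.30 ± 0.11 (SE, log2 scale) that did not pass (limma adjusted p = 0.239). Without any 1 library of the 2 groups the value lay between 0.21 and 0.36. Against control the double was at 111% (94.4% to 131%, limma adjusted p = 0.671). Each Eif2a mutant was also above each knockout, and the double was at 105% of the mutant (88.6% to 123%, limma adjusted p = 0.891). The interaction was 0.21 ± 0.16 (SE, log2 scale, limma adjusted p = 0.778). In PHT the doubles read 787 and 932, the controls 773 and 774, and the Ptpmt1 knockouts 754, 802 and 738. The Hri knockouts read 679 and 797. The double again had the highest mean there, at 112% of the knockout (96.6% to 130%, limma adjusted p = 0.713).

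In the PTGC table, 7 of the 8 genes had a lower and 1 a higher fitted level in the double than in control, with a median log2 fold change of -0.22, against 0.003 over all genes tested. None passed the test, 4 had an unadjusted p under 0.05 (11.5% of all genes did), and 2 had groups apart (18% of all genes). The lists of related genes set out below also had negative medians in this comparison. They were -0.06 for the bridge partners, -0.13 for the scaffolds, -0.17 for the other cysteine-motif proteins and -0.15 for the import genes. Apool read 554, 487 and 672 in control libraries, then 458, 411 and 420 in doubles. Every double was below every control, at 75.9% (62.5% to 92.2%, log2 fold change -0.40 ± 0.13 SE, limma adjusted p = 0.321). Chchd10 went the other way, with control libraries at 1387, 1313 and 957 and doubles at 1463, 1489 and 1555. That is 125% of control (102% to 152%, limma adjusted p = 0.408). Apoo (113, 77.4 and 152 against 95.5, 67.4 and 65.5) was at 68.5% (47.4% to 99.0%, limma adjusted p = 0.428) and Chchd2 (1315, 1244 and 1602 against 1118, 1043 and 1269) at 82.7% (69.0% to 99.0%, limma adjusted p = 0.422). The other fitted levels were, for Immt, 91.2% (78.0% to 107%), for Chchd3 89.1% (76.2% to 104%), for Chchd6 82.6% (64.5% to 106%) and for Stoml2 90.6% (77.5% to 106%).

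PTGC control 3, the control that stood apart, was the highest control for Immt, Chchd3, Apoo, Apool, Chchd2 and Stoml2 and the lowest for Chchd10 and Chchd6. Without it the 7 to 1 split of signs was kept, and the median of the 8 genes was -0.14. Its removal brought Immt from -0.13 to -0.04 ± 0.08 (SE) and Chchd6 from -0.28 to -0.39 ± 0.15. It brought Apool to -0.27 ± 0.10 (SE), Chchd10 to 0.15 ± 0.08, Apoo to -0.32 ± 0.22 and Chchd2 to -0.17 ± 0.09. With control replicate 2 left out the median was -0.21 and Chchd6 was at -0.18 ± 0.18. Apool was then lower by the test, at -0.51 ± 0.12 (SE, limma adjusted p = 0.0424), while the number of genes called over the whole table went from 105 to 536. With control replicate 1 left out, Apool was at -0.41 ± 0.16 and did not pass (limma adjusted p = 0.617). With double replicate 2 left out the 7 to 1 split was kept, the median was -0.17 and Chchd2 was at -0.21 ± 0.14 (SE). The double and control groups each had 2 libraries with a male pattern and 1 with a female pattern.

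Levels of different genes were compared per kilobase of the longest coding transcript, as normalized counts per kb in the controls. In FST the order was Immt (885 ± 42.8, SD, n = 3), Chchd2 (732 ± 42.9), Chchd3 (584 ± 15.4), Chchd10 (509 ± 47.3), Stoml2 (252 ± 30.0), Apool (211 ± 14.04), Chchd6 (77.9 ± 10.99) and Apoo (35.6 ± 7.23). The ranges of the neighbours Chchd3 and Chchd10 did not overlap, while the lowest library of Stoml2 (221) was just above the highest of Apool (220). In PTGC the order was the same, and the neighbours Immt (1592 ± 179, SD, n = 3) and Chchd2 (1516 ± 207) as well as Stoml2 (426 ± 21.0) and Apool (420 ± 68.7) were within 1 SD of each other. The ranges of Chchd6 and Apoo overlapped in PTGC, as did those of Chchd3 and Chchd10 in PHT. In PHT (n = 2) Chchd2 came first at 1784 and Apoo rose above Apool (364 and 281), in the table where both genes with a copy had the higher ratios described above. The order also depends on the length used: with all annotated exons merged, Chchd10 came first in each table.

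**Figure D4:**
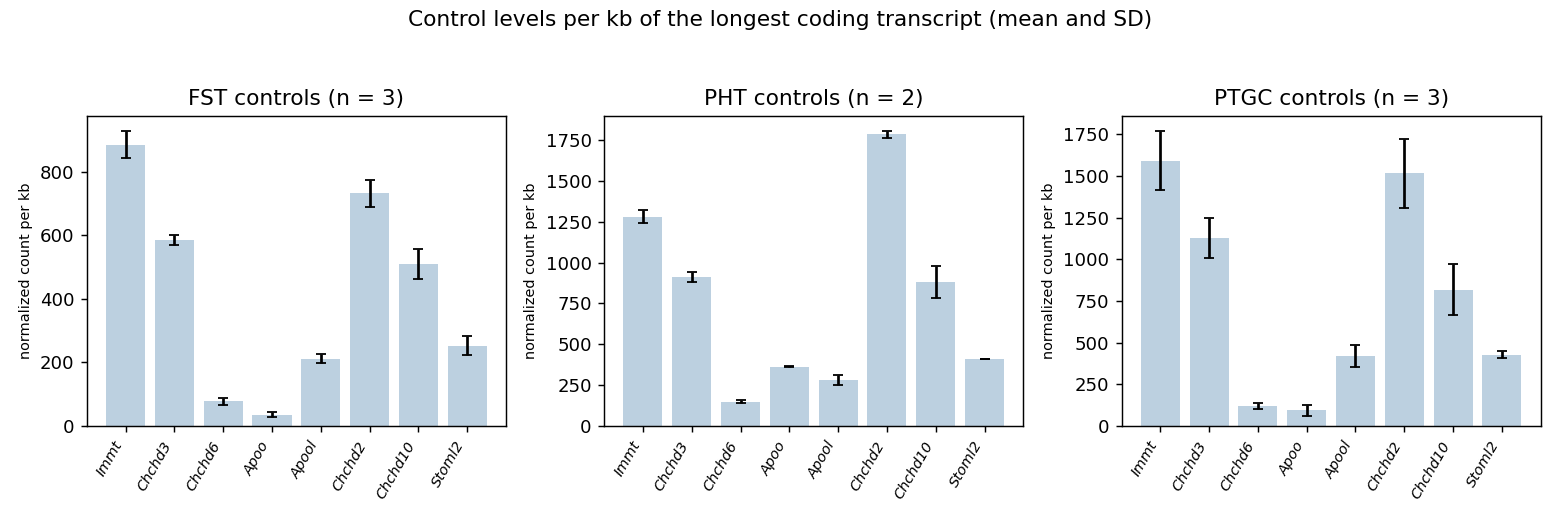
Normalized count per kb of the longest coding transcript (y axis) of the 8 genes (x axis) in the controls of each table, with bars for the mean and error bars for the SD. Immt and Chchd2 are the 2 tallest bars in every table, and Chchd6 and Apoo the 2 lowest in FST and PTGC.

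Few other genes of the same machinery passed the test. Of the 51 genes in 4 lists (10 MICOS and outer-membrane bridge partners, 14 inner membrane scaffolds, 18 other proteins with paired cysteine motifs, and 9 genes of their import), all were tested, and 2 values passed over the 13 comparisons. In the FST Ptpmt1 knockout against control, 0 of the 51 rose and 1 fell, beside 0.504% of all genes tested: Atp5k, the small e subunit that joins ATP synthases into the dimers that bend cristae edges, went from 303 ± 15.1 (SD, n = 3) to 182 ± 28.9 (SD, n = 3), a log2 fold change of -0.74 ± 0.14 (SE, limma adjusted p = 0.0232). In the PHT Ptpmt1 knockout Atp5k was at -0.04 ± 0.13 (363 against 372 in control, limma adjusted p = 0.999), and in the PTGC double at -0.54 ± 0.16 (limma adjusted p = 0.267). In the FST double against the Ptpmt1 knockout, Ghitm, an inner membrane protein linked to cristae structure, fell by 0.63 on the log2 scale (limma adjusted p = 0.0257), from 2406 ± 518 (SD, n = 3) to 1532 ± 92.3 (SD, n = 3). In the knockout against control Ghitm did not pass (0.53 ± 0.12 SE, limma adjusted p = 0.0719). At an unadjusted p under 0.05, the 14 scaffold genes had 4 in the FST knockout against control (13.4% of all genes tested), 5 in the FST double against control (10.1%), 5 in the FST double against the knockout (13.8%) and 5 in the PTGC double against control (11.5%). The 8 genes described here had 0, 0, 1 and 4 in these comparisons.

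The list medians in the FST knockout against control were -0.08 for the bridge partners, -0.12 for the scaffolds, 0.03 for the other cysteine-motif proteins and -0.09 for the import genes, beside -0.02 for the 8 genes described here and -0.01 for all genes tested. The genes with the smallest p of each list, apart from those above, did not pass: the chaperone gene Hspa9 (0.37 ± 0.11 SE, limma adjusted p = 0.166) and the carrier gene Slc25a46 (0.26, adjusted p = 0.445) among the partners, the complex I subunit genes Ndufb7 (-0.43, adjusted p = 0.127) and Ndufs5 (1.70, adjusted p = 0.209, with FST controls at only 5.76, 9.97 and 38.2), and the import genes Aifm1 (-0.23, adjusted p = 0.262) and Timm13 (-0.40, adjusted p = 0.292). Opa1, the fusion protein that narrows cristae junctions, was at 0.10 ± 0.08 (limma adjusted p = 0.605). Micos10, which encodes the membrane-bending MICOS subunit, was at -0.12 ± 0.10 (limma adjusted p = 0.694).

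Across all 27 libraries, after log2(value + 1) was centred on the mean of each table, the 8 genes did not vary as a block. The highest Pearson correlations were between Chchd3 and Chchd2 (r = 0.65, Spearman's rho = 0.62) and between Immt and Apool (r = 0.64, rho = 0.55). The lowest were between Chchd10 and Immt (r = -0.50, rho = -0.35) and between Chchd10 and Apoo (r = -0.49, rho = -0.42). These are descriptions of libraries that share groups and scaling. Without the 2 libraries farthest from the median of the first gene, they were 0.61 for Chchd3 and Chchd2, 0.52 for Immt and Apool, -0.38 for Immt and Chchd10 and -0.43 for Apoo and Chchd10. The 3 genes whose pattern was most like each member were then taken among 10843 genes (10844 for Apoo), by Pearson's r over the same 27 libraries. Chchd3 was nearest to Vdac2 (r = 0.82), Atp5o (0.81) and Ndufb6 (0.80), Chchd2 to Ndufv2 (0.86), Cdc42 (0.84) and Cops5 (0.83), and Apool to Acadm (0.84), Ndufc1 (0.84) and Ttc33 (0.84). Chchd10 was nearest to Lmna (0.86), Trip6 (0.86) and Lrfn4 (0.84), and Immt to Smc2 (0.85), Fignl1 (0.83) and Slc25a13 (0.83). For Apoo the nearest were Nudt21 (0.83), Med14 (0.83) and Zfp942 (0.82), for Stoml2 Rpsa (0.82), Prelid1 (0.79) and Polr1d (0.78), and for Chchd6 Adrm1 (0.74), Zdhhc12 (0.74) and Nelfe (0.73). Spearman's rho of these neighbours ranged from 0.58 (Chchd6 and Nelfe) to 0.88 (Apoo and Zfp942). They are the highest values among many genes and were not recomputed without the libraries that stood apart.

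**Figure D5:**
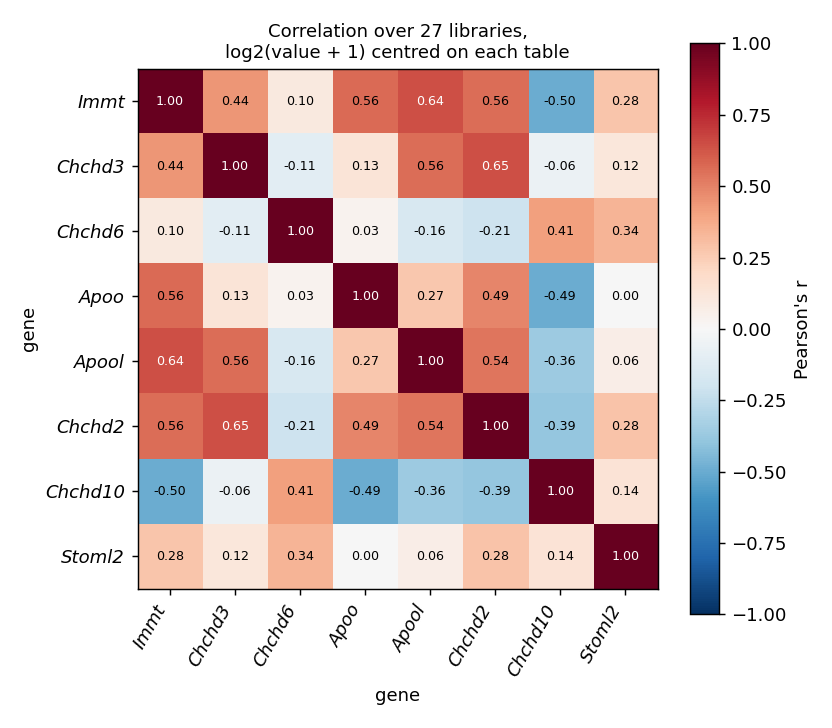
Pearson's r (colour and number in each cell) between the 8 genes (both axes) over 27 libraries, on log2(value + 1) centred on each table. Chchd10 has r from -0.50 to -0.36 with Immt, Apoo, Apool and Chchd2, and Chchd3 and Chchd2 have the highest r, 0.65.

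The annotated positions of the remaining genes are chr6:71831331-71877388 (plus strand) for Immt, chr6:32790976-33060260 (minus) for Chchd3, chr6:89383146-89595652 (minus) for Chchd6, chrX:112311334-112372755 (plus) for Apool, chr10:75933130-75937747 (plus) for Chchd10 and chr4:43027690-43031710 (minus) for Stoml2. Exons of 3 of them overlap a gene on the opposite strand: Immt with Gm44771 over 185 bases, Chchd10 with Mmp11 over 155 and Gm867 over 25 bases, and Stoml2 with Gm26643 over 502 bases. The sources used here do not state whether counting used strand, so it is not known to which gene reads in those stretches were assigned.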

How the data were processed

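The authors deposited a normalized signal per gene and library. The submitters' processing notes list STAR 2.5.3a, DESeq2 1.12.4 and the build mm10 without saying what each was used for. The sources used here name no counter, annotation or strand setting. All values in a column were whole multiples of 1 step, and dividing the deposited signal by it gave whole reads within 0.1 for 100% of values. These gave the depths and fed the count tests. In the PHT Ptpmt1 knockout 3 the step was 1.0004. Columns were matched to samples by title, 0 columns were left without a sample, and 26 gene symbols had become dates.

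Genes were tested that had a value of 10 or more in as many libraries as the smallest group of its table has (13896 genes in FST, 14965 in PHT, 14128 in PTGC). Tests used limma 3.58.1 in R 4.3.3 (trend, no robust prior) on log2(value + 1), 1 fit per table, with Benjamini-Hochberg adjustment over all genes tested, so fold changes of low genes are understated. Percentages of control come from these fits. Alternatives were pseudocounts of 0.5 and 5, no filter, edgeR 4.0.16, DESeq2 1.42.0, TMM scaling, a sex term, and leaving out libraries. The fit was also run on simulated counts. None of the simulated libraries was made to stand apart, so that run does not show how the fit handles such libraries. Libraries of a group differed by more than sampling noise in every pair (chi-square per degree of freedom of 2.24 or more). The members, lists and tests were chosen with earlier results of these data known. The rule for named genes took the 8 genes, Ptpmt1, called genes of the lists, the 2 genes of each list with the smallest p in the FST knockout against control, the 3 genes most alike in pattern (mean of at least 50 in each table), and copies and overlapping neighbours. Asns, Phb, Atp5l, Opa1 and Micos10 are named outside it.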

Additional observations from a re-analysis of the deposited data

How the results depend on the processing

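The number of the 8 genes called stayed at 0 in every comparison under both other pseudocounts, no filter, edgeR, DESeq2 (4 values without an adjusted p), TMM scaling, a sex term, and without FST double 2 and Eif2a mutant 1 together. Leaving out 1 library gave 0 to 1 called genes in the FST Ptpmt1 knockout against control (Chchd10, without knockout replicate 3), 0 to 1 in the FST double against the knockout (Chchd10, without the same library) and 0 to 1 in the PTGC double against control (Apool, without control replicate 2). These were 3 of 632 such values. Over all 1408 alternative values, 113 changed sign, none of them called in either fit, and 46 moved by more than 1 SE. No paired analysis was possible because the labels give the libraries no shared replicate numbers.

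The number of all genes called moved more. In FST it went from 70 to between 21 (sex term) and 857 (without Ptpmt1 knockout replicate 3) for the knockout against control, from 5 to between 2 and 47 for the Eif2a mutant, from 20 to between 3 and 93 for the double, from 122 to between 29 (without double replicate 3) and 327 (without knockout replicate 3) for the double against the knockout, from 1 to up to 22 for the double against the mutant, and from 3 to between 2 and 35 for the interaction. In PHT the same comparisons went from 45 to between 21 and 69, from 3 to between 0 and 4, from 4 to between 0 and 12, from 49 to between 29 and 105, from 3 to between 0 and 11, and from 18 to between 2 and 38. In PTGC the number went from 105 to between 57 (without double replicate 3) and 536 (without control replicate 2). The cause was not tested. Apoo and Chchd6 had the fewest reads of the 8 genes in FST (10 to 77 and 17 to 142), which limits their precision, and no group had the 4 libraries needed to test a single library as an outlier.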
